A study of Mus musculus with 36 samples.

Results

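Kidneys of mice fed a high-fat diet were compared with kidneys of mice fed normal chow at zeitgeber time 16 (ZT16), which is 4 h after lights off, when mice are awake and feeding. The comparison holds 6 of the 36 libraries of the study, chosen by the diet and time in their labels. The first group is 3 high-fat kidneys at ZT16 (replicates 1, 3 and 4) and the second is 3 chow kidneys at ZT16 (replicates 1, 4 and 5). All were wild-type C57BL/6J males under a cycle of 12 h light and 12 h dark. Both diets were given ad libitum, and the assigned diet began when mice were 6 weeks old. The harvest label reads 16 weeks. The other 30 libraries, from the same diets at ZT0, 4, 8, 12 and 20, served to estimate the spread between animals and to ask whether an effect of diet at ZT16 differed from that at other times. In each label the diet entry mentions ZT3, a time that was not sampled, so the times used are those of the titles. The labels do not state that replicates came from separate litters or cages, so p-values measure the spread between these libraries.

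The kidney reabsorbs glucose, amino acids, ions and small proteins in the proximal tubule and sets the final salt, calcium and water content of urine in the distal segments. It also makes glucose from lactate and amino acids, and draws much of its energy from fatty acids. Transcription factors of the sterol regulatory element-binding protein (SREBP) family drive the genes of fatty acid and cholesterol synthesis and lose activity when lipid is supplied from outside. A circadian clock, in which CLOCK or NPAS2 pairs with BMAL1 (gene Arntl) and is opposed by PER, CRY and REV-ERB proteins, times many of these genes over the day.

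Expression is given in FPKM (fragments scaled to transcript length and sequencing depth). Changes are differences of log2(FPKM + 0.5), high-fat minus chow, which understates the change of low genes. A gene is called where limma's moderated test over all 11144 genes that averaged 1 FPKM or more in the study gave a Benjamini-Hochberg adjusted p under 0.05.

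Adrenal and fat transcripts differed between the 6 libraries, so they are given before the results. Cyp21a1, an adrenal steroid hydroxylase, was listed at 0 and stood at 0.255 and 0.0487 FPKM in the high-fat libraries, against 0.033, 20.2 and 0.0278 FPKM in the chow libraries. Chow replicate 4 therefore held adrenal cortex transcripts: it also had 19.9 FPKM of Hsd3b1 and 14.5 FPKM of Cyp11a1, which were at or below 0.151 FPKM in each of the other 5 libraries. Th, the first enzyme of catecholamine synthesis in the adrenal medulla, was listed at 0 in all 6. None of the 11 adrenal markers tested of 14 was called, with a median change of -0.85, or 0.03 without chow replicate 4. In bulk tissue, fewer cells of a type and less RNA per cell cannot be told apart.

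Adipocyte transcripts were found in every library. Adipoq, the adipocyte hormone adiponectin, read 18, 24.6 and 25.8 FPKM in the high-fat libraries, against 19.2, 40.7 and 42.6 FPKM in the chow libraries. Cfd, the adipocyte serine protease adipsin, read 10.2, 12 and 21.1 FPKM in the high-fat libraries, against 151, 230.2 and 327 FPKM in the chow libraries. Lep, the satiety hormone leptin, read 4.84, 8.14 and 9.43 FPKM in the high-fat libraries, against 0.814, 2.25 and 1.22 FPKM in the chow libraries. The diets did not overlap for Cfd or for Lep, and the directions were opposite. Neither passed the test across all genes (Cfd -3.98 ± 1.23 on the log2 scale, SE, limma, adjusted p = 0.192; Lep 2.07 ± 0.74, adjusted p = 0.332). None of the 15 adipocyte markers tested of 16 was called, 12 had negative changes, and their median was -0.54. On the lower side 4 of the 15, Cfd among them, had no overlap between diets, and on the higher side 1, Lep. The shares over all genes tested were 8.06% and 7.12%. The mean log2 level of the list was 2.61, 3.59 and 3.32 in the high-fat libraries, against 3.12, 4.5 and 4.18 in the chow libraries.

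Kidney identity was plain in all 6 libraries. Kap, an androgen-regulated proximal tubule transcript, stood at 63934 to 81068 FPKM in the high-fat libraries, against 73909 to 81077 FPKM in the chow libraries. Of the 14 proximal tubule markers none was called (median change -0.1), and none of the 10 glomerular and vascular markers was (median 0.03). Of the 22 markers of the loop, distal tubule and collecting duct 1 was called, Pvalb, described below, against 0.556% of all genes tested, and the list's median was -0.16. Changes were negative for 19 of the 22. The diets did not overlap for 8 on the lower side and 1 on the higher side, against 8.06% and 7.12% of all genes tested. The skeletal muscle list had 1 of its 7 members above the filter, Mylpf, with a change of -0.2. Relative depth, read from the spacing of low FPKM values, was 0.85 to 1.485 in the high-fat libraries, against 0.901 to 1.299 in the chow libraries.

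**Figure D1:**
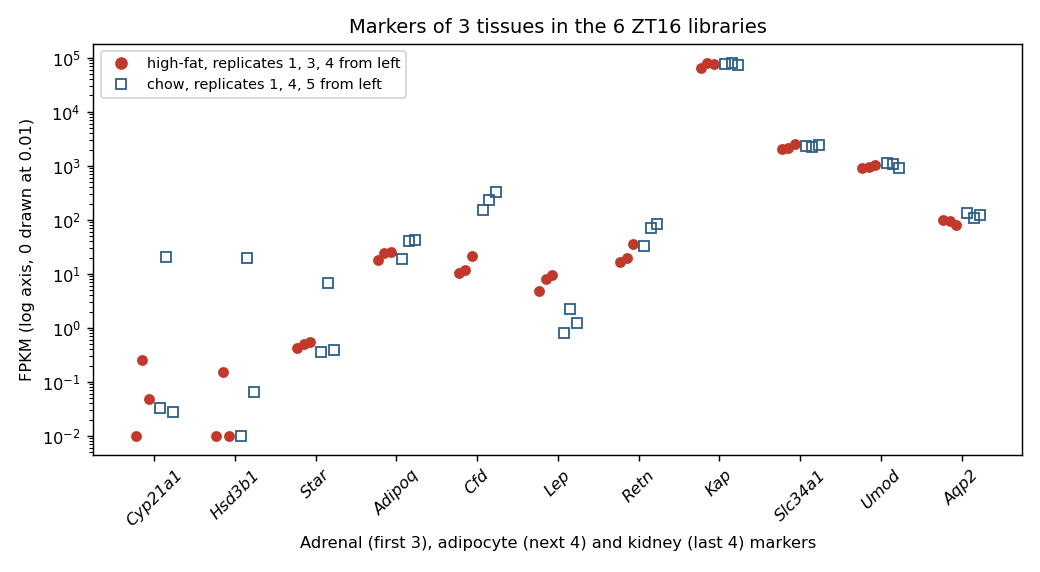
FPKM (log axis, values of 0 drawn at 0.01) of 3 adrenal, 4 adipocyte and 4 kidney markers, with 1 point per ZT16 library, high-fat filled and chow open. Chow replicate 4 stands alone for Cyp21a1 (20.2 FPKM), and the diets do not overlap for Cfd and Lep. The values of each kidney marker lie close together, though the diets do not overlap for Aqp2 either.

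At ZT16 the expression of 62 of 11144 genes was called (0.556%): 30 were higher in high-fat kidneys (0.269%) and 32 lower (0.287%). The median change was 0.75 among the higher genes and -0.83 among the lower ones, against 0.002 over all genes tested. At least 1.5-fold changes made up 23 of the higher and 26 of the lower genes, and at least 2-fold changes 8 and 10. In 61 of the 62 the 3 high-fat values lay wholly above or wholly below the 3 chow values, a pattern that 15.2% of all genes tested showed. The exception was Npas2, where the lowest high-fat and the highest chow value met at 0.659 FPKM. The calls rest on these same values, so the lack of overlap is no separate support for them.

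Most calls were not firm against the loss of 1 library. Without chow replicate 4, which holds adrenal transcripts, 7 genes were called higher and 15 lower, and 20 of the 62 kept their call. The counts of higher and lower genes were 4 and 5 without chow replicate 1, 10 and 9 without chow replicate 5, 7 and 7 without high-fat replicate 1, 13 and 19 without high-fat replicate 3, and 18 and 23 without high-fat replicate 4. All 62 kept their sign in each of these fits, which was fixed in advance for the 61 without overlap between diets. The 20 that kept their call without chow replicate 4 included Rarres2, Utp20, Egln3, Slc5a10, Etnppl, Suox and Hebp1 among the higher genes and Gcat, Xpnpep1, Tmem151a, Cela1, Vps8, Col5a2, Spns3, S100g, Srebf1, Guca2a, 9030619P08Rik and Wfdc16 among the lower ones. The call held in all 6 of them for 7 genes, among them Rarres2, Utp20, Suox, Vps8, S100g and 9030619P08Rik, and in none for 16. For the other called genes described singly below, the number of these 6 fits that kept the call is given as "of the 6 fits".

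**Figure D2:**
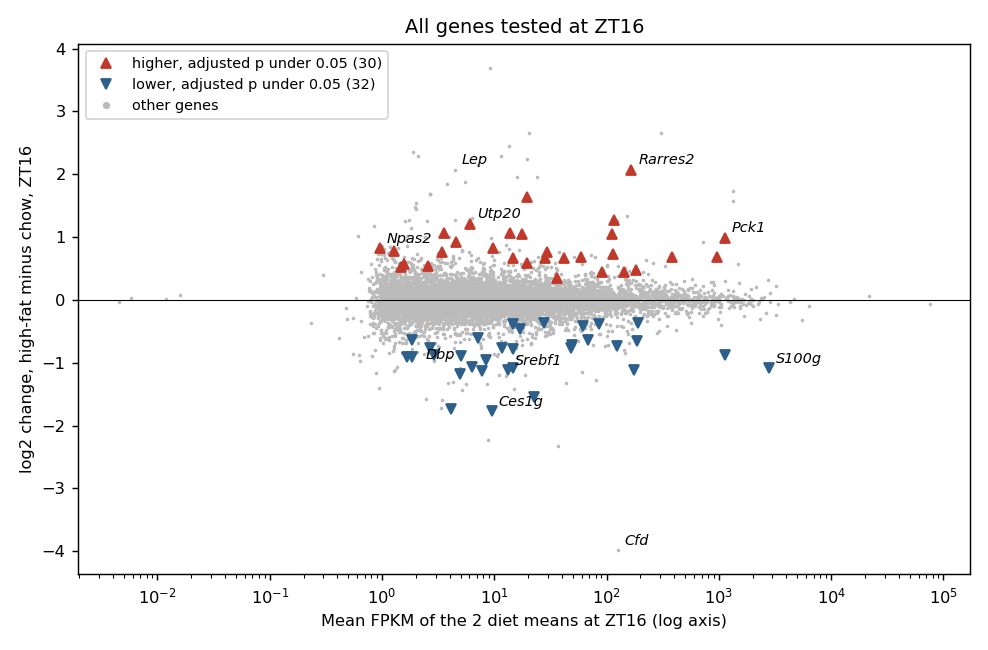
Change in expression at ZT16 (log2, high-fat minus chow) against mean FPKM of the 2 diets (log axis) for the 11144 genes tested, with the 30 called higher as red triangles, the 32 called lower as blue triangles and the rest in grey. Called genes lie on both sides of 0 from about 1 FPKM to above 1000 FPKM, and Cfd and Lep have large changes that did not pass.

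Genes of lipid synthesis were among the lower ones. Srebf1, which encodes SREBP-1, the activator of fatty acid synthesis genes, lies at chr11:60199089-60222581 on the minus strand (GRCm38). It read 7.59, 8 and 8.67 FPKM in high-fat kidneys, against 18.5, 20 and 16.1 FPKM in chow kidneys. Every high-fat library was below the lowest chow library by close to 2-fold. Srebf1 fell by 1.12 ± 0.2 on the log2 scale (SE, limma, adjusted p = 0.0063), with the call kept in 4 of the 6 fits.

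Most genes of sterol synthesis had negative changes, but few passed. Of 24 genes of cholesterol synthesis and its control, 2 were called, both lower, where the background was 0.287% of genes called lower. Changes were negative for 20 and the median was -0.42. Without chow replicate 4, 1 of them was called, and the median was -0.4. The number called lower was 4 without the 4 libraries with adrenal transcripts and 6 with the trend of each library over GC content removed. Sqle, squalene epoxidase, averaged 9.38 FPKM in high-fat and 15.3 FPKM in chow kidneys and did not pass (-0.67, limma, adjusted p = 0.0666). Msmo1, a sterol methyl oxidase, averaged 10.7 FPKM in high-fat and 17.9 FPKM in chow kidneys and did not pass (-0.72, limma, adjusted p = 0.0868). The 2 groups did not overlap for 16 of the 24 genes on the lower side, where 8.06% of all genes tested showed such a gap.
Members with positive changes were Hmgcs1, Cyp51, Nsdhl and Ebp, with 0.26, 0.16, 0.11 and 0.29, and none of these passed.

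Changes were negative for 13 of the 18 genes of fatty acid synthesis. The diets did not overlap for 8 of the 18 on the lower side and 0 on the higher side, against 8.06% and 7.12% of all genes tested. Of 18 genes 2 were called, both lower, Srebf1 and Fads1, against 0.287% of all genes tested, with a list median of -0.4. Without chow replicate 4, 1 of them was called, Srebf1, and the median was -0.26. Fads1, a desaturase that makes arachidonic acid, read 11, 9.96 and 11.1 FPKM in high-fat kidneys, against 21.3, 18.2 and 17 FPKM in chow kidneys. It fell by 0.78 ± 0.16 (limma, adjusted p = 0.018), with the call kept in 2 of the 6 fits. Scd2, a stearoyl-CoA desaturase, averaged 13.1 FPKM in high-fat and 21.9 FPKM in chow kidneys (-0.72, limma, adjusted p = 0.189). Acacb, the acetyl-CoA carboxylase that restrains fatty acid entry into mitochondria, averaged 2.15 FPKM in high-fat and 3.75 FPKM in chow kidneys (-0.68, limma, adjusted p = 0.189). Fasn, fatty acid synthase, looked up after its value was seen, read 5.98, 5.6 and 7.67 FPKM in high-fat kidneys, against 10.3, 20.2 and 16.8 FPKM in chow kidneys, and did not pass (-1.19, limma, adjusted p = 0.374). Acly, Me1, Elovl5, Fads2 and Dgat2 were within 0.03 of no change.

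Lpl, the lipase that releases fatty acids from circulating triglyceride, is also abundant in adipocytes. It read 95.3, 103 and 135 FPKM in high-fat kidneys, against 239, 241 and 233 FPKM in chow kidneys. The chow libraries were nearly identical to each other, and all high-fat libraries lay well below them. Lpl fell by 1.11 ± 0.24 (limma, adjusted p = 0.0268), with the call kept in 1 of the 6 fits. Adipocyte markers were on average lower in the same high-fat libraries, as given above. Cfd and Lep had opposite changes, so the mean level of that list does not measure carried fat alone, here or below. With the adipocyte level of each library as a covariate, Lpl had a change of -1.02 (limma, adjusted p = 0.0265), Srebf1 -1.07 (adjusted p = 0.0077) and Fads1 -0.78 (adjusted p = 0.0224), while the median of the fatty acid synthesis list moved to -0.18.

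A few further called genes encode enzymes that act on lipids, and they were taken from the calls and not from a list. Mogat2, which adds an acyl chain to monoacylglycerol, read 20.9, 29.2 and 22.4 FPKM in high-fat kidneys, against 9.64, 11.3 and 13.1 FPKM in chow kidneys, and rose by 1.05 ± 0.24 (limma, adjusted p = 0.0381, kept in 0 of the 6 fits). Ces1g, a carboxylesterase that acts on lipid esters, read 3.71, 4.28 and 3.69 FPKM in high-fat kidneys, against 19.6, 9.81 and 15.6 FPKM in chow kidneys. It had the largest drop of the 32 genes called lower, -1.77 ± 0.42 (limma, adjusted p = 0.0492, kept in 0 of the 6 fits). Its neighbour on chromosome 8, Ces1d, a carboxylesterase known as a triglyceride hydrolase, read 508, 519 and 399 FPKM in high-fat kidneys, against 281, 300.2 and 293 FPKM in chow kidneys, and rose by 0.69 ± 0.15 (limma, adjusted p = 0.0293, kept in 1 of the 6 fits). Carboxylesterase genes are close copies of each other and reads may be shared between them, so both values are uncertain to that extent. B4galt5, which makes lactosylceramide, read 28.4, 33.1 and 45.8 FPKM in high-fat kidneys, against 66.8, 62.4 and 51.8 FPKM in chow kidneys, and fell by 0.77 ± 0.18 (limma, adjusted p = 0.0455, kept in 1 of the 6 fits).

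Fatty acid oxidation had no called gene. Of 36 genes tested of the oxidation and PPARα list, 30 had positive changes, and the median was 0.23. In 18 of them every high-fat library was above every chow library, where 7.12% of all genes tested showed that order. Cpt2, which regenerates acyl-CoA inside mitochondria, read 88.2, 89.4 and 84.2 FPKM in high-fat kidneys, against 68.6, 69.9 and 64.8 FPKM in chow kidneys, a small and even gap that just missed the threshold (0.36 ± 0.09, limma, adjusted p = 0.0608). Hadh and Acadvl, further enzymes of β-oxidation, had changes of 0.25 and 0.3 (limma, adjusted p = 0.0863 and 0.106). With the trend of each library over GC content removed, 2 members of the list were called higher.

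**Figure D3:**
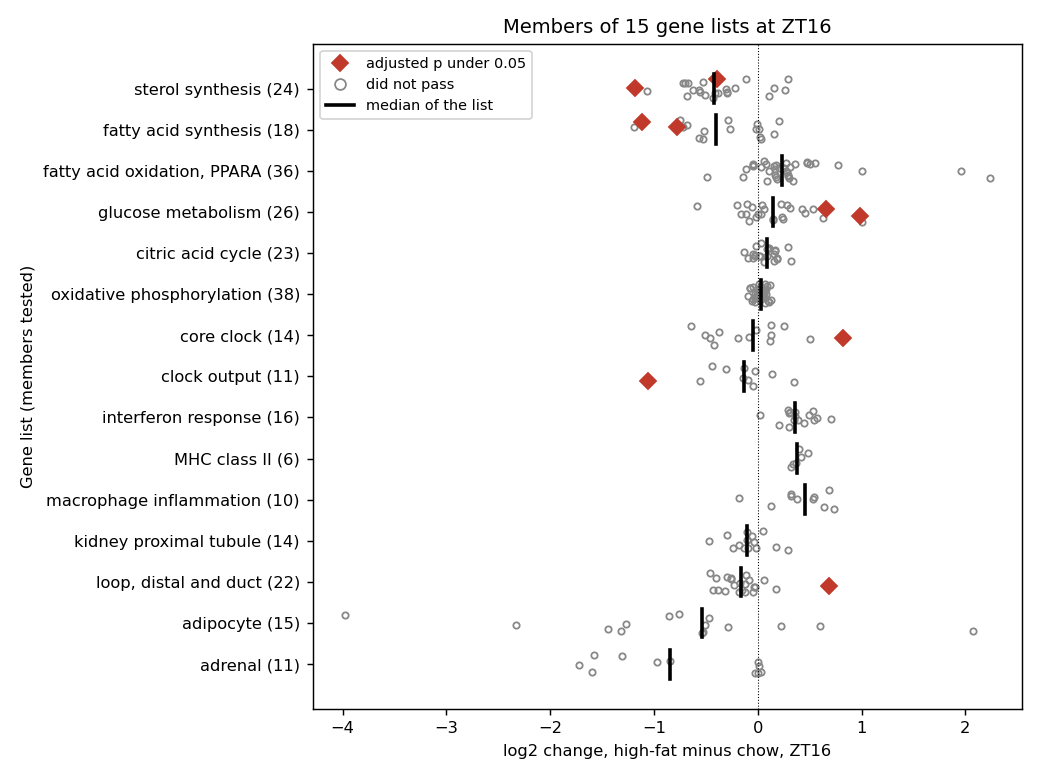
Change at ZT16 (log2, high-fat minus chow) of each member of 15 gene lists, with called members as red diamonds and list medians as bars. Sterol synthesis members lie mostly below 0 (median -0.42) and fatty acid oxidation members mostly above (median 0.23), with 2 and 0 members called.

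Glucose metabolism had 2 of 26 genes called, both higher, against 0.269% of all genes tested, with a list median of 0.15. Without chow replicate 4 neither was called, at the same median. Pck1, phosphoenolpyruvate carboxykinase, the rate-limiting enzyme of glucose production, lies at chr2:173153048-173159273 on the plus strand. Its promoter is shown because a cyclic AMP response element there is a textbook site of its control by fasting hormones. The window runs from 250 bases before to 50 after the gene's start (RefSeq, GRCm38.p6, chr2:173152823-173153122, plus strand). The capitals mark the match to TGACGNNA, on the reverse strand, found when all such windows were searched on both strands.
Pck1: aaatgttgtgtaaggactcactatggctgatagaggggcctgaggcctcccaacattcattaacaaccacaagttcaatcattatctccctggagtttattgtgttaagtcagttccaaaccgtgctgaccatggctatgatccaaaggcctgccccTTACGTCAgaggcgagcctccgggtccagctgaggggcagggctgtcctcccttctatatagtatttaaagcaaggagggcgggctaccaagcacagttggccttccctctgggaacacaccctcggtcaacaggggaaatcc
Pck1 read 1938, 1592 and 994 FPKM in high-fat kidneys, against 919, 695 and 612 FPKM in chow kidneys. The lowest high-fat library was just above the highest chow library, so the groups were apart by little. Pck1 rose by 0.99 ± 0.23 (limma, adjusted p = 0.0361), with the call kept in 1 of the 6 fits, and was called higher at all 6 times of day. TGACGNNA or its reverse complement was found in 6.61% of 32851 promoter windows, and for 7.56% of the genes that have one. It was found for 4 of the 46 called genes with a window.

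Pklr, the pyruvate kinase of liver and kidney, which works in the opposite direction to Pck1, read 17.6, 17.4 and 19.1 FPKM in high-fat kidneys, against 11.6, 10.6 and 11.4 FPKM in chow kidneys. Both groups were tight, and it rose by 0.66 ± 0.15 (limma, adjusted p = 0.0324, kept in 0 of the 6 fits). Its exons overlap those of Hcn3 on the other strand, and the library kit does not mark strand. Pcx, pyruvate carboxylase, averaged 235 FPKM in high-fat and 189.5 FPKM in chow kidneys and did not pass (0.31, limma, adjusted p = 0.166). Fbp2, a fructose bisphosphatase, averaged 7.18 FPKM in high-fat and 11.1 FPKM in chow kidneys and did not pass (-0.59, limma, adjusted p = 0.172). Tkfc, triokinase of the fructose pathway, which lies outside the naming rule and was picked after its value was seen, rose by 0.48 (limma, adjusted p = 0.0455, kept in 0 of the 6 fits).

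A pair of transporters also rose, Slc5a10 and Slc16a1. Slc5a10, a sodium-coupled mannose and fructose transporter of the proximal tubule, read 137, 156 and 162 FPKM in high-fat kidneys, against 71.7, 83.6 and 63.9 FPKM in chow kidneys. It rose by 1.05 ± 0.2 (limma, adjusted p = 0.011, kept in 4 of the 6 fits) and was called at all 6 times. Slc16a1, the monocarboxylate transporter MCT1 that carries lactate and ketone bodies, read 14.7, 9.78 and 13.1 FPKM in high-fat kidneys, against 6.95, 5.66 and 7.76 FPKM in chow kidneys. It rose by 0.83 ± 0.19 (limma, adjusted p = 0.0426, kept in 1 of the 6 fits). Of the lists of transporters fixed for the kidney, none of the 13 glucose, phosphate and urate carriers was called (median -0.06), none of the 15 amino acid carriers (median -0.01) and none of the 15 organic anion and cation carriers tested (median -0.02). Slc7a7, the basolateral exporter of cationic amino acids, read 39.3, 41 and 48.2 FPKM in high-fat kidneys, against 76.2, 55.2 and 73.8 FPKM in chow kidneys, without overlap, and did not pass (-0.66, limma, adjusted p = 0.131). Changes of the amino acid carriers ran from -0.66 to 0.87. The diets did not overlap for 3 of them on the higher side and 2 on the lower, against 7.12% and 8.06% of all genes tested.

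Some of the strongest single changes were in genes outside these pathways. Rarres2, the secreted chemoattractant and adipokine chemerin, lies at chr6:48569696-48572789 on the minus strand. It read 225, 309 and 267 FPKM in high-fat kidneys, against 55.6, 61.1 and 73.1 FPKM in chow kidneys. The lowest high-fat library was about 3-fold above the highest chow library. Rarres2 rose by 2.07 ± 0.32 (limma, adjusted p = 0.00126) and was called at all 6 times of day. With the adipocyte level as a covariate the change was 2.09 (limma, adjusted p = 0.00122). Its exons overlap those of Lrrc61 on the other strand. Ugt2b37, a UDP-glucuronosyltransferase that conjugates steroids and drugs, read 142, 181 and 166 FPKM in high-fat kidneys, against 77.1, 74.5 and 51.1 FPKM in chow kidneys. It rose by 1.28 ± 0.28 (limma, adjusted p = 0.0291, kept in 0 of the 6 fits), and was the 1 called gene of 17 tested in the list of drug conjugation, against 0.556% of all genes tested. The list's median was -0.09. Ugt2b37 belongs to a family of close copies, so reads may be shared. Gsta3, a glutathione transferase, read 86.3, 93.6 and 78.4 FPKM in high-fat kidneys, against 121, 116 and 128 FPKM in chow kidneys, and narrowly missed the threshold (-0.49 ± 0.12, limma, adjusted p = 0.0556).

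Utp20 (chr10:88746607-88826804, minus strand) encodes a part of the complex that cuts the precursor of small-subunit ribosomal RNA. It had the lowest adjusted p of all 11144 genes at ZT16. It read 8.21, 9.79 and 7.84 FPKM in high-fat kidneys, against 4.21, 3.29 and 2.88 FPKM in chow kidneys, with every high-fat library close to 2-fold or more above every chow library. Utp20 rose by 1.21 ± 0.14 (limma, adjusted p = 3.55e-05), and its call was kept whichever of the 6 libraries was left out. None of the other 16 genes tested of the ribosome assembly list was called, and the list's median was -0.03. None of the 26 cytosolic ribosomal protein genes was called either, with a median of 0.

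The promoters of Utp20 and Slc16a1 are shown together because both genes rose at ZT16 and both windows hold CACGTG, the E-box letters that CLOCK or NPAS2 with BMAL1 is known to bind. The windows are chr10:88826765-88827064 on the minus strand and chr3:104638414-104638713 on the plus strand (RefSeq, GRCm38.p6), each with the motif in capitals.
Utp20: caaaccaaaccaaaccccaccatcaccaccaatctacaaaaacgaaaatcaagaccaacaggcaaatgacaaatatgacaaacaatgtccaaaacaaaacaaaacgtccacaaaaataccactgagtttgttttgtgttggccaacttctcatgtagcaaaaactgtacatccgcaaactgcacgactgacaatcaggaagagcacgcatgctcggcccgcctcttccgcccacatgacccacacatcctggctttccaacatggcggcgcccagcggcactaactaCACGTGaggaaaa
Slc16a1: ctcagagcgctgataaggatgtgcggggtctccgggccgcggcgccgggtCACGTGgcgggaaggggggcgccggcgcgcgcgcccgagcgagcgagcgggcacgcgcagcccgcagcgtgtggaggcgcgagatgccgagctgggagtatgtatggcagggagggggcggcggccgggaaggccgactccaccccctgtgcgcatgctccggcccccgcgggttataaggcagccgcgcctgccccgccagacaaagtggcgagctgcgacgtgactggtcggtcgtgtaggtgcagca
CACGTG was found in 7.15% of the 32851 promoter windows, and for 8.09% of the genes that have one. It was found for 10 of the 46 called genes that have a window, 5 of them higher (Utp20, Slc16a1, Lpar2, Mlph and Hebp1) and 5 lower (Fkbp11, Ccdc151, Cpne4, Nt5c2 and Gcat). A match describes the letters of the window and nothing more. Other motifs were searched on both strands. CACGTT was found for 3 of the 46 and for 5.44% of all genes with a window, and TAGGTCA for 2 and for 2.97%. TTATGNAA was found for 3 and for 3.99%, and TCACNCCAC for 1 and for 1.44%.

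Of the calcium-binding proteins known from the distal nephron, S100g was called lower and Pvalb higher. S100g, calbindin-D9k, which carries calcium across the cytosol of distal tubule cells, lies at chrX:162961992-162964599 on the minus strand. It read 1756, 1741 and 1805 FPKM in high-fat kidneys, against 4456, 3131 and 3779 FPKM in chow kidneys. The high-fat libraries were nearly equal and all were below the chow range. S100g fell by 1.09 ± 0.17 (limma, adjusted p = 0.00171) and was called lower at all 6 times. Pvalb, parvalbumin, a calcium buffer of the distal convoluted tubule, read 75.4, 77.7 and 67.3 FPKM in high-fat kidneys, against 46, 40.9 and 49 FPKM in chow kidneys. It rose by 0.69 ± 0.13 (limma, adjusted p = 0.00959, kept in 2 of the 6 fits) and was called higher at all 6 times. Calb1, calbindin-D28k, a further calcium buffer of these segments looked up after its value was seen, averaged 119 FPKM in high-fat and 160.2 FPKM in chow kidneys, with overlap, and did not pass (-0.43, limma, adjusted p = 0.866). Atp6v1g3, Scnn1a and Scnn1b, a proton pump subunit of intercalated cells and 2 subunits of the epithelial sodium channel, had changes of -0.46, -0.38 and -0.3 and did not pass (limma, adjusted p = 0.267, 0.307 and 0.421). Cubn, the cubilin receptor by which the proximal tubule takes up filtered protein, read 22.3, 19.5 and 19.5 FPKM in high-fat kidneys, against 31.2, 27.8 and 26.4 FPKM in chow kidneys, and narrowly did not pass (-0.47, limma, adjusted p = 0.0666).

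**Figure D4:**
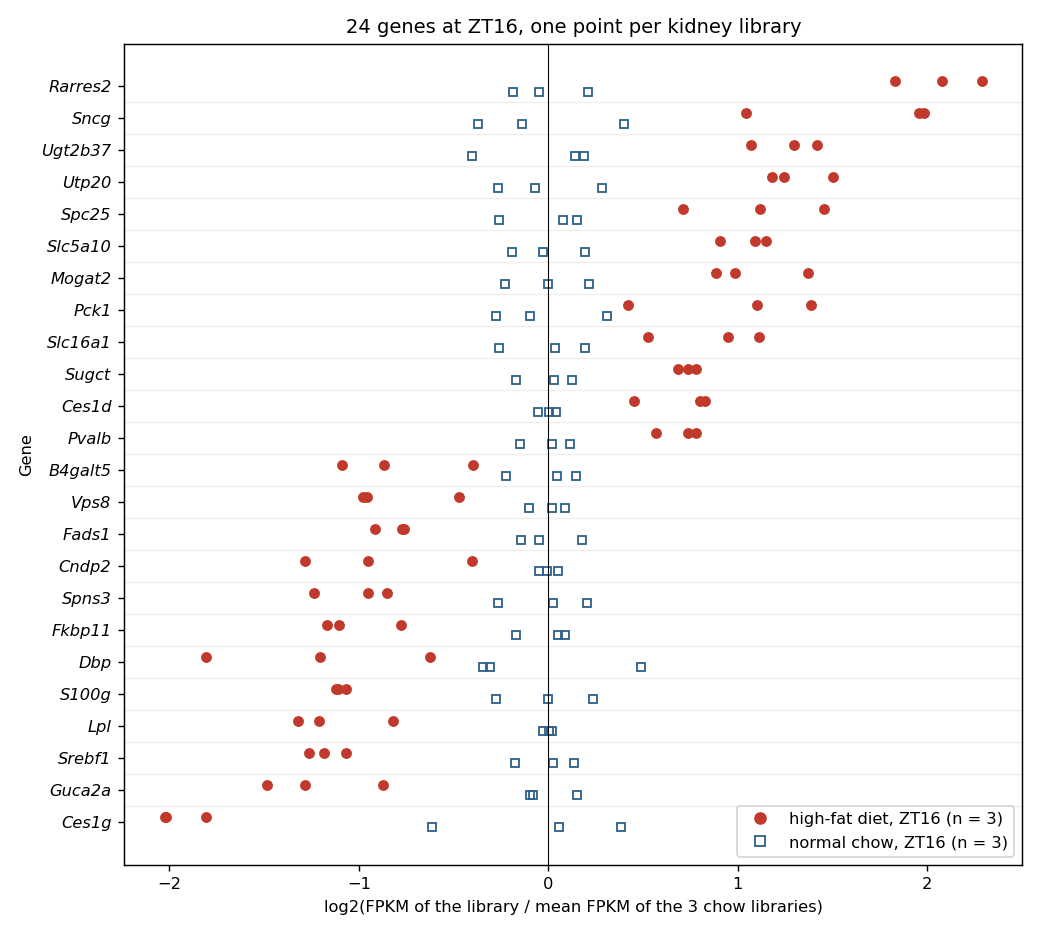
Expression of the 12 highest and 12 lowest called genes named by rule in each ZT16 library, as log2 of FPKM over the mean of the 3 chow libraries, with high-fat as filled circles and chow as open squares. The naming rule requires that circles and squares do not overlap, and the widest gap is that of Rarres2.

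Other genes named by rule had lower levels or less known roles in the kidney. Sncg, γ-synuclein, a cytosolic protein of neurons and adipocytes, read 18.6, 35 and 35.7 FPKM in high-fat kidneys, against 6.99, 11.9 and 8.2 FPKM in chow kidneys, and rose by 1.64 ± 0.39 (limma, adjusted p = 0.0455, kept in 0 of the 6 fits). With the adipocyte level as a covariate its change was 1.87 (adjusted p = 0.00114). Spc25, part of the kinetochore complex that holds microtubules in mitosis, read 23.6, 18.7 and 14.1 FPKM in high-fat kidneys, against 9.56, 7.2 and 9.11 FPKM in chow kidneys, and rose by 1.06 (limma, adjusted p = 0.0108, kept in 4 of the 6 fits). Sugct, a mitochondrial enzyme of glutarate disposal, rose by 0.73 (limma, adjusted p = 0.047, kept in 0 of the 6 fits).
Among the lower genes, Guca2a, the peptide guanylin that signals through guanylate cyclase, read 3.89, 4.47 and 5.95 FPKM in high-fat kidneys, against 10.2, 10.3 and 12.1 FPKM in chow kidneys, and fell by 1.13 ± 0.21 (limma, adjusted p = 0.00982, kept in 3 of the 6 fits). Cndp2, a cytosolic dipeptidase that is abundant in the kidney, read 591, 743 and 1089 FPKM in high-fat kidneys, against 1433, 1393 and 1492 FPKM in chow kidneys, and fell by 0.88 ± 0.2 (limma, adjusted p = 0.0426, kept in 1 of the 6 fits). Vps8, a subunit of an endosome tethering complex, read 7.58, 7.46 and 10.6 FPKM in high-fat kidneys, against 14.9, 15.6 and 13.7 FPKM in chow kidneys, and fell by 0.77 ± 0.13 (limma, adjusted p = 0.00279). Spns3, a transporter-like protein of the Spinster family, fell by 0.9 (limma, adjusted p = 0.00436, kept in 5 of the 6 fits). Fkbp11, a peptidyl-prolyl isomerase of the endoplasmic reticulum, fell by 0.95 (limma, adjusted p = 0.0361, kept in 0 of the 6 fits).

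The remaining 34 called genes were outside the naming rule, and those given here were picked after their values were seen. Suox, sulfite oxidase, read 51.8, 46.7 and 55 FPKM in high-fat kidneys, against 34.2, 31.5 and 30.5 FPKM in chow kidneys, and rose by 0.66 ± 0.1 (limma, adjusted p = 0.00132). Egln3, an oxygen-dependent prolyl hydroxylase of the hypoxia pathway, read 5.73, 5.49 and 3.77 FPKM in high-fat kidneys, against 1.74, 2.81 and 1.89 FPKM in chow kidneys, and rose by 1.06 ± 0.18 (limma, adjusted p = 0.00406, kept in 5 of the 6 fits). Etnppl, an ethanolamine phosphate lyase, rose by 0.93 (limma, adjusted p = 0.018, kept in 2 of the 6 fits), and Amt, of the mitochondrial glycine cleavage system, by 0.67 (limma, adjusted p = 0.047, kept in 0 of the 6 fits). Lpar2, a receptor for lysophosphatidic acid, rose by 0.78 (limma, adjusted p = 0.0344, kept in 0 of the 6 fits), and Neil1, a DNA repair glycosylase, by 0.77 (limma, adjusted p = 0.0138, kept in 2 of the 6 fits). Wfdc16 had the largest drop in log2 terms of these 34, with 2.21, 1.29 and 1.43 FPKM in high-fat kidneys, against 8.33, 5.62 and 5.94 FPKM in chow kidneys (-1.74 ± 0.31, limma, adjusted p = 0.0063, kept in 5 of the 6 fits).
9030619P08Rik, annotated as a transcribed pseudogene, read 10.5, 11.5 and 11.9 FPKM in high-fat kidneys, against 33.2, 32 and 36.4 FPKM in chow kidneys, and fell by 1.54 ± 0.2 (limma, adjusted p = 7.35e-05). Col5a2, a fibrillar collagen chain, fell by 0.88 (limma, adjusted p = 0.00781, kept in 5 of the 6 fits), and Cela1, an elastase, by 0.74 (limma, adjusted p = 0.00781, kept in 3 of the 6 fits). Apom, the carrier of sphingosine phosphate in lipoproteins, read 110.3, 169 and 160.2 FPKM in high-fat kidneys, against 210.1, 213 and 261 FPKM in chow kidneys, and fell by 0.65 (limma, adjusted p = 0.0455, kept in 1 of the 6 fits). Hsd3b2, a steroid dehydrogenase with close copies in the genome, fell by 0.72 (limma, adjusted p = 0.029, kept in 1 of the 6 fits). The other higher genes were 2410006H16Rik, 1500012F01Rik, 4632428N05Rik, Mlph, Zfp775, Hebp1, Fahd2a and Gatb, besides Tkfc above and Ndrg1 below, with changes of 0.35 to 0.77. The other lower genes were Gcat, Cox20, Nt5c2, Xpnpep1, Apip, Golt1a, Ndrg2, Tmem151a, Cpne4, Proz, Ccdc151 and Gm853, with changes of -1.09 to -0.36.

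Of 14 core clock genes tested, 1 was called at ZT16, against 0.556% of all genes tested, and the median of the list was -0.05. Npas2, the partner of BMAL1, read 1.41, 0.659 and 2.07 FPKM in high-fat kidneys, against 0.354, 0.552 and 0.659 FPKM in chow kidneys. The groups met at their edges, and levels were near the filter of 1 FPKM. Npas2 rose by 0.82 ± 0.19 (limma, adjusted p = 0.047), with the call kept in 1 of the 6 fits and lost without chow replicate 4 (0.84, adjusted p = 0.126). Arntl read 4.32, 2.54 and 5.27 FPKM in high-fat kidneys, against 2.09, 2.81 and 2.99 FPKM in chow kidneys, with overlap, and did not pass (0.5, limma, adjusted p = 0.307).
On the opposing arm, Per2 averaged 4.19 FPKM in high-fat and 6.19 FPKM in chow kidneys (-0.51, limma, adjusted p = 0.81), Nr1d1, which encodes REV-ERBα, 2.55 and 3.42 FPKM (-0.37, adjusted p = 0.952), and Ciart 0.642 and 1.28 FPKM (-0.64, adjusted p = 0.445). Per3 and Nr1d2 had changes of -0.42 and -0.46, and Per1, Cry1, Cry2, Clock, Rora and Bhlhe40 lay between -0.19 and 0.13, none of them called. Bhlhe41 was below the filter.

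Of 11 clock output genes 1 was called, lower, against 0.287% of all genes tested, and their median was -0.13. Without chow replicate 4 none was called. Dbp (chr7:45705088-45710203, plus strand), a D-box transcription factor under direct clock control, read 3.79, 5.67 and 2.5 FPKM in high-fat kidneys, against 12.3, 7.08 and 6.89 FPKM in chow kidneys. Chow replicate 1 was the highest of its group, and even the highest high-fat library was below the lowest chow library. Dbp fell by 1.06 ± 0.25 (limma, adjusted p = 0.0425), with the call kept in 1 of the 6 fits, and its exons overlap those of Sphk2 on the other strand. At the time before, ZT12, Dbp averaged 29.3 FPKM in high-fat and 48.5 FPKM in chow kidneys. The related factors Tef and Hlf had changes of -0.09 and -0.03. Tspan4, Tsku and Usp2 had changes of -0.56, -0.44 and -0.31 and Pdxk 0.35, all without overlap between diets and none of them called. Of the 11 genes, 4 had no overlap on the lower side and 1 on the higher, against 8.06% and 7.12% of all genes tested. Nfil3, Wee1, Por and Ppard lay between -0.14 and 0.14.

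Immune transcripts lay above 0 as lists but no member was called. All 16 interferon response genes had positive changes, with a median of 0.36, and in 11 every high-fat library was above every chow library, against 7.12% of all genes tested. Ifit1, an interferon-induced antiviral protein, read 1.41, 1.77 and 1.05 FPKM in high-fat kidneys, against 0.86, 0.537 and 0.589 FPKM in chow kidneys (0.71, limma, adjusted p = 0.192). Irf7, the transcription factor of the interferon response, read 7.69, 11 and 10.2 FPKM in high-fat kidneys, against 5.8, 6.41 and 6.62 FPKM in chow kidneys (0.57, limma, adjusted p = 0.378). The 6 MHC class II genes tested had positive changes (median 0.38), as had 9 of 10 macrophage genes (median 0.46) and the 3 lymphocyte genes tested (median 0.57). C1qc, a complement component made by macrophages, read 16.6, 24.3 and 21.9 FPKM in high-fat kidneys, against 14.6, 13.5 and 14.2 FPKM in chow kidneys (0.54, limma, adjusted p = 0.55). Cd79b, of the B cell receptor, stood between 0.42 and 1.56 FPKM in the 6 libraries (0.73, limma, adjusted p = 0.231). With the adipocyte level of each library as a covariate, the medians were 0.4 for interferon response, 0.42 for MHC class II, 0.5 for macrophage and 0.61 for lymphocyte genes. Members of such a list share their cells of origin and are not independent of each other. The adipocyte level does not measure carried fat alone, as stated above.

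The other lists held no called gene. Medians were 0.09 for the citric acid cycle (23 genes), 0.03 for oxidative phosphorylation (38), 0.04 for cytochromes P450 (16), -0.15 for NRF2 antioxidant genes (10), -0.11 for NAD and kynurenine metabolism (15) and 0.06 for the renin-angiotensin system (8). They were 0.07 for tubular injury markers (10), 0.03 for matrix and fibrosis genes (13), -0.07 for insulin and IGF signalling (12), -0.08 for glucocorticoid response genes (12), 0.02 for immediate early genes (7) and -0.15 for heat shock genes (14). The cold-inducible list had 0.04 (6), the unfolded protein response -0.05 (16) and ATF4 targets 0.01 (8). Pdk4, the kinase that shuts off pyruvate dehydrogenase in fasting and is counted here as a glucocorticoid target, read 6.38, 4.71 and 4.98 FPKM in high-fat kidneys, against 1.95, 3.87 and 1.79 FPKM in chow kidneys, without overlap, and did not pass (1, limma, adjusted p = 0.19). Oxidative phosphorylation genes were the most even, with all 38 between -0.09 and 0.13.

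Over the 6 times, ZT16 stood between the early day and the other times in its number of calls: 1.59% of genes at ZT0, 1.61% at ZT4, 0.332% at ZT8, 0.368% at ZT12, 0.556% at ZT16 and 0.260% at ZT20. The chow groups of ZT0 and ZT4 hold 1 and 2 further libraries with adrenal transcripts. Of the 62 genes called at ZT16, 12 were called in the same direction at all 6 times, among them Rarres2, Pck1, Slc5a10, Ugt2b37, S100g and Pvalb, and 20 were called in that direction at no other time. Of these 20, Npas2 was called in the opposite direction at ZT4 (-1.14, limma, adjusted p = 0.00187), which leaves 19 with no call at another time. The sign was the same at all 5 other times for 49.

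Whether the diet effect at ZT16 differed from the mean of the effects at the other 5 times was tested directly. No gene passed (0 of 11144 by limma, with 290 at an unadjusted p under 0.05), so none of the 62 changes is shown to be particular to ZT16. The lowest p were those of Zfp775, a zinc finger protein (difference 0.69 ± 0.12, limma, adjusted p = 0.0647), and Npas2 (difference 1.1 ± 0.21, adjusted p = 0.0948). Without high-fat replicate 3, Npas2 passed this test (difference 1.41, limma, adjusted p = 0.000593). That library had the lowest Npas2 of its group, so leaving it out raises the group mean by construction. No gene passed when any other single ZT16 library was left out. With the GC trend removed Zfp775 passed (0.66, limma, adjusted p = 0.0453).

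Srebf1 shows how the diets compared over the day. Mean Srebf1 was 8.93, 8.72, 7.44, 8.12, 8.09 and 8.07 FPKM in high-fat kidneys at ZT0, 4, 8, 12, 16 and 20, against 20.7, 11.2, 9.11, 12.2, 18.2 and 16.4 FPKM in chow kidneys. High-fat means stayed within a narrow band, while chow means were high at ZT16, ZT20 and ZT0 and low at ZT4 and ZT8. The difference of the ZT16 effect from the other times was -0.48 for Srebf1 and did not pass (limma, adjusted p = 1).

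Set against ZT4 alone, 6 genes had an effect of diet at ZT16 that differed (0.0538% of genes), and against ZT0 alone 1 did, Zfp775 (0.00897%). None did against ZT8, ZT12 or ZT20. These single-time contrasts were added after the data were seen. Dbp averaged 3.99 FPKM in high-fat and 8.75 FPKM in chow kidneys at ZT16, but 25.9 FPKM in high-fat and 13.6 FPKM in chow kidneys at ZT4. Npas2 averaged 1.38 FPKM in high-fat and 0.522 FPKM in chow kidneys at ZT16, but 0.461 FPKM in high-fat and 1.62 FPKM in chow kidneys at ZT4. Ndrg1, a gene induced by stress and low oxygen, averaged 1193 FPKM in high-fat and 738 FPKM in chow kidneys at ZT16, but 618 FPKM in high-fat and 979 FPKM in chow kidneys at ZT4. Its call at ZT16 was kept in 3 of the 6 fits. Slc16a1 averaged 12.5 FPKM in high-fat and 6.79 FPKM in chow kidneys at ZT16, but 5.91 FPKM in high-fat and 9.38 FPKM in chow kidneys at ZT4. On the Dbp curve ZT4 is on the rising side and ZT16 on the falling side, and for Npas2, Ndrg1 and Slc16a1 the reverse.

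**Figure D5:**
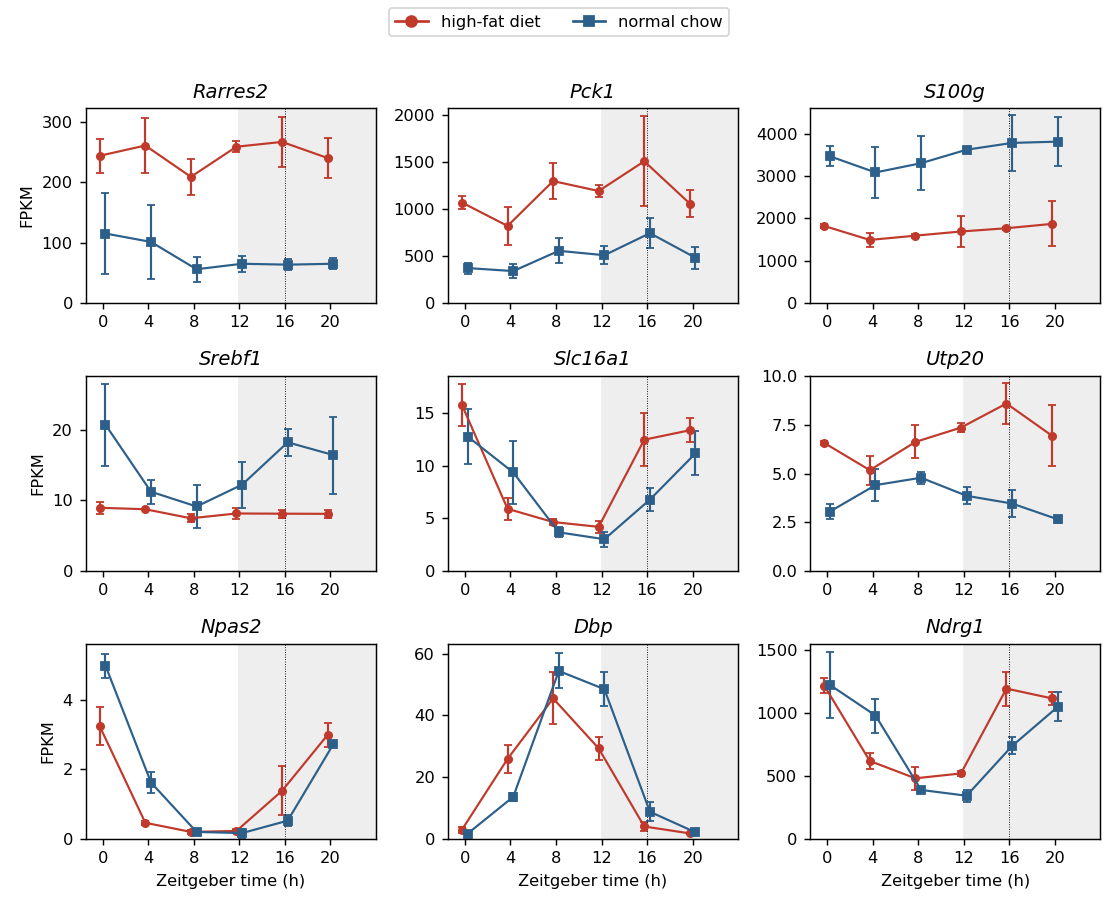
Mean FPKM ± SD (n = 3 libraries) of 9 genes over zeitgeber time (h), high-fat in red and chow in blue, with the dark phase shaded and ZT16 as a dotted line. Rarres2, Pck1 and S100g differ between diets in the same direction at all 6 times, whereas the Npas2, Dbp and Ndrg1 curves cross, with high-fat above chow for Npas2 and Ndrg1 and below for Dbp at ZT16.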

How the data were processed

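Kidney RNA was sequenced from 36 mice, 3 per diet and time, and 6 of the libraries are the ZT16 comparison. TRIzol extraction and the TruSeq RNA v2 kit, which does not mark strand, are given per the labels' protocols. The values are FPKM as deposited by the authors, in a high-fat and a chow table that share 24883 rows. The tools behind them, per the submitters' processing notes, were CASAVA 1.8.2, Bowtie and Cuffnorm on mm10. Whether both tables came from 1 Cuffnorm run is not stated, so a difference between runs and diet cannot be told apart. A count model was not used because FPKM are not counts.

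Repeated symbols (280, on 817 rows) were dropped. Genes averaging 1 FPKM or more over all libraries (11144) were tested as log2(FPKM + 0.5) with limma 3.58.1 in R 4.3.3, with a mean-variance trend and 12 group means over the 36 libraries, which leaves 24 residual degrees of freedom. The contrasts were high-fat minus chow at ZT16, and that difference minus the mean of the differences at the other 5 times. Adjustment was by Benjamini-Hochberg over all genes at a threshold of 0.05. The script was tested on simulated data.

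The members, the 37 gene lists and the tests were chosen with earlier results of these data known. Genes named by rule are the 12 highest and 12 lowest changes among called genes with a mean of at least 5 FPKM at ZT16, no overlap between diets and a gene name, the clock and clock output genes, and up to 4 members by p for each list. Genes outside the rule are said to be so. A few genes that the rule or a list takes are left unreported here but were kept in all tests and counts.

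The tables give no read totals. Depth relative to other libraries came from the spacing of low values of 1947 rarely detected genes, of which 90.4% lay within 0.05 of a whole multiple. It ranged from 0.353 to 1.519 over the 36 libraries. Positions are from GENCODE M21 on GRCm38 and were found for 61 of the 62 called genes. Exons of 17 of these overlap another gene, in 16 on the other strand. Besides genes given with an overlap elsewhere, the 16 include Srebf1, Slc5a10, Mogat2, Sugct, Tkfc, Ndrg1, Hsd3b2, Hebp1, Cox20 and Nt5c2. The kit does not mark strand, so reads from such overlaps cannot be assigned by strand. Alternatives were other pseudocounts, filters and scalings, a robust prior, a replicate block, removal of each library's trend over GC content, an adipocyte level (mean log2 of the adipocyte list) as a covariate, the 6 libraries alone, and leaving out libraries.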

Additional observations from a re-analysis of the deposited data

Results flagged for a closer look

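These genes are given because the diet effect at ZT16 differed from that at a single other time by a direct test (limma, adjusted over all 11144 genes). Such single-time contrasts were chosen after the data were seen. The chow group of ZT4 holds 2 libraries with adrenal transcripts and that of ZT0 holds 1.

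Against ZT4, the difference in diet effect (log2, effect at ZT16 minus effect at ZT4) was 1.95 for Npas2 (adjusted p = 0.0009), 1.35 for Ndrg1 (adjusted p = 0.0009), 1.42 for Slc16a1 (adjusted p = 0.0295) and 1.31 for Arntl (adjusted p = 0.0226), which had positive effects at ZT16 and negative ones at ZT4. It was -2.01 for Ciart and -1.95 for Dbp (adjusted p = 0.0143 for both), which had negative effects at ZT16 and positive ones at ZT4. Ciart, a repressor of the clock, averaged 0.642 FPKM in high-fat and 1.28 FPKM in chow kidneys at ZT16, and 3.7 FPKM in high-fat and 1.18 FPKM in chow kidneys at ZT4. Arntl averaged 4.05 FPKM in high-fat and 2.63 FPKM in chow kidneys at ZT16, and 1.05 FPKM in high-fat and 2.24 FPKM in chow kidneys at ZT4. All 6 had an adjusted p under 0.05 with the GC trend removed, and Npas2 and Ndrg1 also did with the replicate block (0.00604 and 0.00793), where the other 4 had 0.0608. With upper quartile rescaling Slc16a1 had 0.0648. Leaving out the 4 libraries with adrenal transcripts kept all 6 differences at their sign, but then 1 chow library is left at ZT4.

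Against ZT0, the difference for Zfp775 was 0.92 (adjusted p = 0.0405). It averaged 1.82 FPKM in high-fat and 1.12 FPKM in chow kidneys at ZT16, and 1.54 FPKM in high-fat and 2.16 FPKM in chow kidneys at ZT0. It had an adjusted p of 0.081 with the GC trend removed, 0.108 with the replicate block and 0.0749 with upper quartile rescaling. Its exons overlap 3 other annotated genes.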

How the results depend on the processing

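None of the 62 called genes changed its sign under any alternative that tested it. For fits that only left out libraries or changed the pseudocount, this was fixed in advance for the 61 genes without overlap. The count of higher and lower genes at ZT16, 30 and 32, was 18 and 20 with no filter on low values, 16 and 25 with the replicate block, 55 and 48 with the GC trend removed, 51 and 39 with both, and 19 and 39 without the 4 libraries with adrenal transcripts. Leaving out 1 of the 6 ZT16 libraries gave 4 to 18 higher and 5 to 23 lower genes, and a group of 2 is then assumed to vary like the others. Other pseudocounts, filters at 5 FPKM or at ZT16, rescalings, the robust prior, the adipocyte covariate and the 6 libraries alone kept both counts within 1.5 times. Of the 62, 37 were called with the block, 55 with the GC trend removed and 31 in the 6 libraries alone. The fits with the block used numbers that the labels do not say mark a shared animal, litter or day: deviations of libraries with the same number correlated at 0.21 for number 1 and -0.02 for number 4, so the numbers are not taken to pair them. In the 6 libraries alone with the block, 37 genes were higher and 47 lower.

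The count of genes whose diet effect at ZT16 differed from the other times, 0, was 1 with no filter and with the GC trend removed (Zfp775 in both), 1 without the 4 adrenal libraries (Mir6244, a small RNA, in a fit with 1 chow library at ZT4), 1 against ZT0 alone and 6 against ZT4 alone. It was 0 to 1 with 1 library left out. The cause of these shifts was not tested. Depth limits genes near 1 FPKM most, such as Npas2 and Zfp775, and 3 libraries per group limit all of them.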
